A study of Mus musculus with 6 samples.

Results

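The angiopoietins, the Tie receptors and the angiopoietin-like proteins were examined in bulk RNA-seq of tail tendon. The 8 genes were taken by symbol from a table of 44788 gene symbols, and all 8 were among the 14550 genes with enough counts to be tested. They are *Angpt1* and *Angpt2*, which encode secreted ligands, *Tek* and *Tie1*, which encode the Tie2 and Tie1 receptor tyrosine kinases, and *Angptl1*, *Angptl2*, *Angptl4* and *Angptl7*, which encode secreted proteins of similar build that do not bind the Tie receptors in the classical way. The samples were 3 wild-type (WT) and 3 *Mkx*-/- tail tendons from C57BL/6 mice, aged 3 weeks by the sample labels, whereas the text of the study gives another age. *Mkx*-/- mice are knockouts of Mohawk, a homeobox transcription factor of tendon, and were supplied by another laboratory. No source states whether a library came from 1 mouse or from pooled mice, so the p-values measure the spread between these samples only.

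Angiopoietin-1 is produced mainly by perivascular and mesenchymal cells and activates Tie2 on endothelial cells, which stabilises vessels. Angiopoietin-2 is released by endothelial cells and acts on the same receptor as a context-dependent antagonist, and Tie1 forms complexes with Tie2 and tunes its signal. The angiopoietin-like proteins have separate roles, of which the inhibition of lipoprotein lipase by Angptl4 is the best known.

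The libraries held between 10835070 and 14160301 counts. Levels are given as CPM, read counts brought to a common library size with TMM scaling. Calls of upregulated and downregulated genes needed a log2 fold change beyond 1 or -1 and an adjusted p below 0.05 (edgeR's quasi-likelihood test, Benjamini-Hochberg adjustment over all 14550 genes). Fold changes are *Mkx*-/- over WT, and where a pair of mean levels is given the first is that of WT. *Mkx* itself had 1825, 1381 and 1685 counts in WT and 620, 589 and 491 counts in *Mkx*-/- libraries, so reads on the gene remained in every *Mkx*-/- library. WT replicate 3 was the only library with counts on the Y-linked gene *Ddx3y* (301, against 0 in the others) and had 1 count of *Xist*, against 1289 to 1866 in the others. The tendon markers *Tnmd* (886 to 1292 CPM) and *Scx* (13.3 to 53.4 CPM) were present in all 6 libraries. In bulk tissue, fewer cells of a type and less RNA per cell cannot be told apart.

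Of the 8 genes, 1 was downregulated and 0 were upregulated in *Mkx*-/- tendons by edgeR, whereas DESeq2 called 1 upregulated and 1 downregulated. Over all tested genes, 1.89% were upregulated and 1.33% were downregulated by edgeR (275 and 193 genes). DESeq2, which was given all 44788 gene symbols and applied its own filter, called 386 and 273. At an unadjusted p under 0.05, 2 of the 8 were higher and 1 was lower in *Mkx*-/-, beside 12.5% and 10.1% of all tested genes. The WT and *Mkx*-/- libraries did not overlap for 4 of the 8 genes, *Angpt1*, *Angpt2*, *Tie1* and *Angptl1*, compared with 28.2% of all tested genes. The median log2 fold change of the 8 genes was 0.32, and that of all tested genes was -0.0037.

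**Figure D1:**
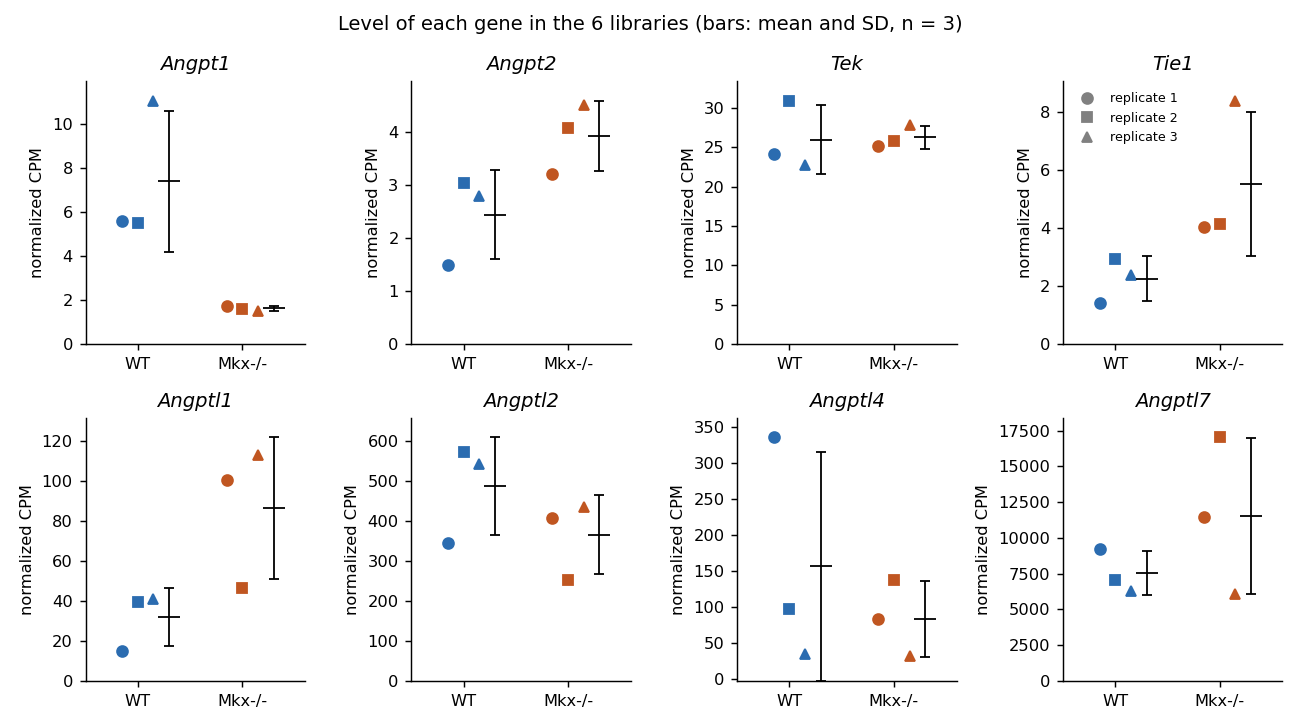
Normalised level (CPM after TMM scaling, linear axis for each gene) of the 8 genes in each library, with the mean and SD of the 3 WT and the 3 *Mkx*-/- libraries. *Angpt1* lies between 1.51 and 1.74 CPM in *Mkx*-/- tendons, below all 3 WT libraries, whereas the groups overlap for *Tek*, *Angptl2*, *Angptl4* and *Angptl7*.

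**Figure D2:**
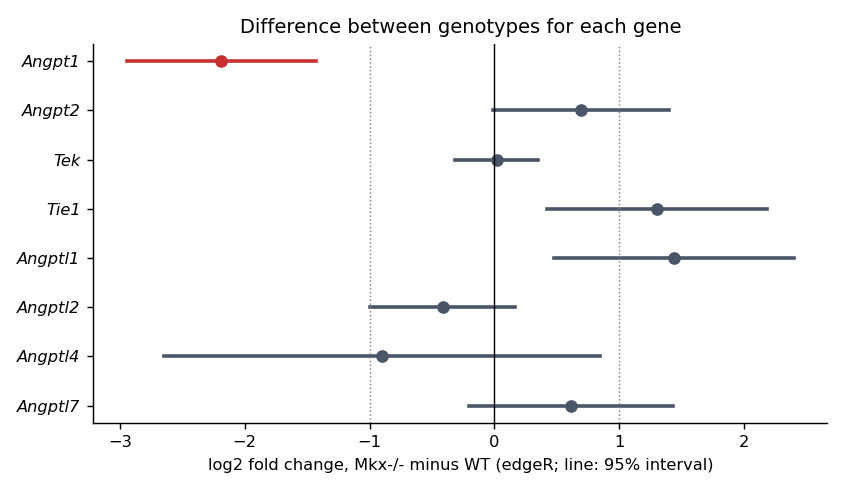
Log2 fold change of *Mkx*-/- over WT for each of the 8 genes, with the 95% interval from edgeR's quasi-likelihood fit (3 libraries per group). Dotted lines mark the fold thresholds and red the called gene. The interval of *Angpt1*, from -2.95 to -1.43, lies wholly below 0, those of *Tie1* and *Angptl1* lie wholly above 0, and the other 5 include 0.

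The sequences around the transcription starts of both receptors and of the most abundant gene of the family are shown because the results turn on how both receptors compare with endothelial markers and on the abundance of *Angptl7*. RefSeq's table held a promoter for 5 of the 8 genes (*Tek*, *Tie1*, *Angptl1*, *Angptl2* and *Angptl7*), each running from 250 bases before the RefSeq start to 50 bases after it. The printed sequences were matched exactly to mm9, the build of the count table, and each matched once. They lie at chr4:94405730-94406029 on the plus strand for *Tek*, at chr4:118162405-118162704 on the minus strand for *Tie1* and at chr4:147874522-147874821 on the minus strand for *Angptl7*. Capitals mark the letters AGGAAG on either strand, a form of the sites that ETS transcription factors bind. The shorter letters GGAA, on either strand, also occur unmarked in each printed window, that of *Tek* included. ETS factors such as Erg are regulators of endothelial genes.
Tek: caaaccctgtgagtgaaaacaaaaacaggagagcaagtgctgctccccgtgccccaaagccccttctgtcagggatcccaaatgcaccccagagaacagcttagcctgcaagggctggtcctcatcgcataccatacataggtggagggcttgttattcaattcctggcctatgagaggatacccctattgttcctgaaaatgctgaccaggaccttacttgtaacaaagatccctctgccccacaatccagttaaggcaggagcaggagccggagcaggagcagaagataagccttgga
Tie1: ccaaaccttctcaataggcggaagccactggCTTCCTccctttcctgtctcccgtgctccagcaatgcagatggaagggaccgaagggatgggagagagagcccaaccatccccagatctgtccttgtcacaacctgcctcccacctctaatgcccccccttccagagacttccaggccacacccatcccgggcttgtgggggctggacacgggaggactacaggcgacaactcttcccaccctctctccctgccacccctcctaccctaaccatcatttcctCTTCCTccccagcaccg
Angptl7: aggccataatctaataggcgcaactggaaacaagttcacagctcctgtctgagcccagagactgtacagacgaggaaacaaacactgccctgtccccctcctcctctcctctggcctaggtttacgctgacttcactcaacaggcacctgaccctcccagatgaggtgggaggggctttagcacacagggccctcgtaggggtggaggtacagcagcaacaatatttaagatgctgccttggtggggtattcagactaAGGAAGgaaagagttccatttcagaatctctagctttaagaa
The *Tie1* window held 2 matches, the *Angptl7* window 1 and the *Tek* window 0. Of 27025 RefSeq promoters of this length, 35.1% held at least 1 match, so a match is common. The matches of *Tie1* began at positions 32 and 284 of the window, and that of *Angptl7* at position 259. The GENCODE start of *Tie1* lies 212 bases upstream of the RefSeq start, inside the printed window, and that of *Tek* coincides with it. Neither ACGTG, the core bound by hypoxia-inducible factors (19.7% of promoters on either strand), nor ACATGT, a palindrome of the Iroquois type of homeodomain (5.49%), was found in the windows of the 5 genes. A match is a description of letters, and no match says only that these letters are not in this window.

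*Angpt1* (mm9 chr15:42256273-42508523, minus strand), the activating ligand of Tie2, fell in *Mkx*-/- tendons to 0.22 of its WT mean. Its counts were 71, 56 and 138 in WT and 19, 23 and 19 in *Mkx*-/- libraries, which correspond to 5.59, 5.50 and 11.1 CPM against 1.74, 1.62 and 1.51 CPM. The highest *Mkx*-/- library was below the lowest WT library, and the 3 *Mkx*-/- values lay close together. The WT mean was 7.38 ± 3.18 CPM and the *Mkx*-/- mean 1.62 ± 0.117 CPM (SD, n = 3 each). The log2 fold change was -2.19 with a standard error of 0.33 (adjusted p = 0.0107, edgeR). *Angpt1* was called in all 14 alternative settings. Without WT replicate 3, the highest library and the one with *Ddx3y* counts, the log2 fold change was -1.79 with an adjusted p of 0.0226 in edgeR. A lincRNA on the opposite strand, Gm17473, overlaps 283 exonic bases of *Angpt1* and was not analysed here.

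*Angpt2* (chr8:18690263-18741562, minus strand) had 19, 31 and 35 counts in WT and 35, 58 and 57 counts in *Mkx*-/- libraries. At 1.50, 3.04 and 2.80 CPM against 3.21, 4.08 and 4.52 CPM, every *Mkx*-/- library was above every WT library, by little for the nearest pair. The means were 2.45 ± 0.832 CPM (SD, n = 3) and 3.93 ± 0.668 CPM (SD, n = 3). The log2 fold change of 0.70 had a 95% interval from -0.01 to 1.40 and did not pass the test (adjusted p = 0.228, edgeR). *Angpt2* lies within *Mcph1*, a gene of the opposite strand, with 0 shared exonic bases. *Mcph1* had 20 to 48 counts per library and 2.67 CPM in WT against 2.78 CPM in *Mkx*-/- tendons. The counting's treatment of strand is not given in the sources used here, so intronic reads of *Mcph1* counted on *Angpt2* were not tested.

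Both ligands act on the same receptor, so the ratio of their levels, each as CPM + 0.5, was taken within each library. With levels this low the added 0.5 matters, and the difference between genotypes below was -2.75 with 0.1 and -2.15 with 1 in its place. The log2 ratio of *Angpt1* to *Angpt2* was 1.61, 0.76 and 1.81 in WT and -0.73, -1.11 and -1.32 in *Mkx*-/- libraries. The ratio was above 0 in all 3 WT libraries and below 0 in all 3 *Mkx*-/- libraries, on a scale that does not correct for the length of either gene. The mean log2 ratio differed by -2.45 between the genotypes (exact two-sided permutation test, p = 0.1, n = 3 per group, the smallest p this design allows). This was 1 of 4 such measures, and the adjusted p was also 0.1 for each (exact permutation test).

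*Tek* (chr4:94405980-94541667, plus strand), the Tie2 receptor of angiopoietins, had 306, 315 and 284 counts in WT and 274, 367 and 351 counts in *Mkx*-/- libraries. Its levels of 24.1, 30.9 and 22.8 CPM in WT enclosed the 25.1, 25.8 and 27.8 CPM of *Mkx*-/- tendons. The means were 25.9 ± 4.38 CPM (SD, n = 3) and 26.2 ± 1.42 CPM (SD, n = 3). The log2 fold change of 0.019 had a 95% interval from -0.31 to 0.35 (adjusted p = 0.960, edgeR), the narrowest interval of the 8 genes, and a change within those bounds cannot be told from none.

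*Tie1* (chr4:118143796-118162666, minus strand), the partner receptor of Tie2, had 18, 30 and 30 counts in WT and 44, 59 and 106 counts in *Mkx*-/- libraries. The 1.42, 2.94 and 2.40 CPM of WT were all below the 4.03, 4.15 and 8.40 CPM of *Mkx*-/- tendons, and *Mkx*-/- replicate 3 was the highest. The means were 2.26 ± 0.774 CPM (SD, n = 3) and 5.53 ± 2.49 CPM (SD, n = 3). Its log2 fold change of 1.30 (95% interval 0.43 to 2.18) was not called (adjusted p = 0.0885, edgeR). The call depended on the setting, with an adjusted p of 0.0346 in DESeq2. Without *Mkx*-/- replicate 3, the log2 fold change was 0.87 and the adjusted p 0.261 in edgeR.

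Within each library, the log2 ratio of *Tek* to *Tie1* was 3.68, 3.19 and 3.00 in WT and 2.50, 2.50 and 1.67 in *Mkx*-/- tendons. The groups did not overlap, with a mean difference of -1.07 (exact two-sided permutation test, p = 0.1, n = 3 per group, the smallest possible).

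Both receptors are known as endothelial genes, and the summed level of endothelial markers differed between the groups. The 16 endothelial markers summed to 88.6 to 110 CPM in WT and 168 to 240 CPM in *Mkx*-/- libraries, with the top value in *Mkx*-/- replicate 3. Of these 16 markers, 2 were upregulated and 0 downregulated, 10 were higher and 0 lower at an unadjusted p below 0.05, with a median log2 fold change of 0.81. DESeq2 called 4 of them upregulated. Whatever the p-value, 14 were higher and 2 lower, the latter being *Emcn* and *Esam* (log2 fold changes -0.26 and -0.32). The called markers were *Erg*, an ETS transcription factor of endothelium, which rose from 8.30 to 36.0 CPM (log2 fold change 2.12, adjusted p = 0.00195, edgeR), and *Ecscr*, an endothelial surface protein, which rose from 9.23 to 24.9 CPM (1.43, adjusted p = 0.00227, edgeR). *Egfl7*, a protein secreted by endothelium, averaged 3.81 CPM in WT tendons and 7.24 CPM in *Mkx*-/- ones (adjusted p = 0.110, edgeR). Unlike the marker sum, *Erg* did not peak in *Mkx*-/- replicate 3, with 44.1, 37.1 and 26.9 CPM in the *Mkx*-/- libraries.

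Relative to the mean log2 level of these 16 markers, *Tek* stood at 2.50, 2.59 and 2.20 in WT and 2.01, 1.96 and 1.41 in *Mkx*-/- libraries, a difference of -0.64. *Tie1* stood at -1.18, -0.60 and -0.80 in WT and -0.48, -0.54 and -0.26 in *Mkx*-/- libraries, a difference of 0.43. Neither measure overlapped between the groups, and both had the smallest exact p of 0.1 (two-sided permutation test, n = 3 per group). By these ratios alone, *Tek* was lower relative to the markers in *Mkx*-/- libraries and *Tie1* was higher. In WT, *Tek* averaged 25.9 CPM and *Tie1* 2.26 CPM. The WT means of the 16 markers ran from 0.857 CPM (*Sox18*) to 25.3 CPM (*Eng*), with *Pecam1* at 6.21 CPM. These levels are not corrected for the length of the genes. The cell type that the *Tek* reads came from was not tested. The part of the endothelial RNA in the values of the receptors was not tested beyond these ratios.

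**Figure D3:**
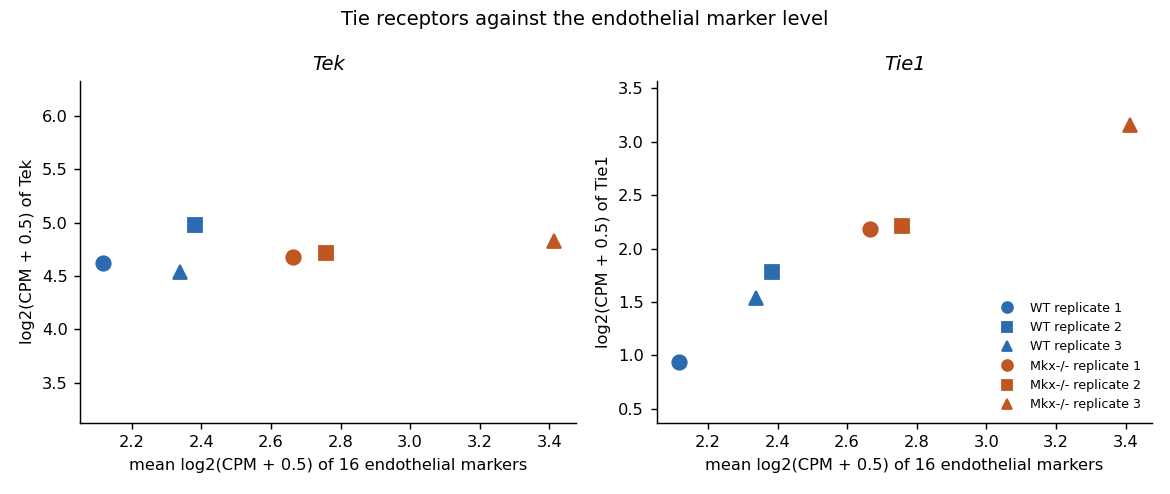
Log2(CPM + 0.5) of *Tek* and of *Tie1* against the mean log2(CPM + 0.5) of the 16 endothelial markers in each of the 3 WT and 3 *Mkx*-/- libraries. *Tek* stays level from the WT to the *Mkx*-/- libraries while the markers are higher in the latter, and *Tie1* is highest in *Mkx*-/- replicate 3, the library with the most endothelial marker RNA.

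Markers of mural cells, the pericytes and smooth muscle that are a known source of angiopoietin-1, were also summed. They came to 352 to 411 CPM in WT and 376, 374 and 993 CPM in *Mkx*-/- libraries, so *Mkx*-/- replicate 3 stood apart. *Myh11*, the myosin of smooth muscle, had 202 CPM in that library and 1.97 to 2.75 CPM in the other 5. None of the 10 mural markers was called by edgeR, 4 were higher and 0 lower at an unadjusted p under 0.05, and DESeq2 called 2 upregulated. The median log2 fold change was 1.03. *Des*, a muscle intermediate filament, had 9.14, 0.883 and 5.45 CPM in WT and 52.9, 26.9 and 15.9 CPM in *Mkx*-/- libraries (adjusted p = 0.0584, edgeR), which is the order of the skeletal muscle marker sums within each genotype and not that of the mural sums. *Mcam*, an adhesion protein of pericytes and endothelium, had 12.6 and 33.8 CPM (adjusted p = 0.121, edgeR). *Angpt1* was low in all 3 *Mkx*-/- libraries, including the one with the highest mural sum. *Acta2* (396 CPM) and *Myh11* made up much of that sum, and *Rgs5* was also high there (41.8 CPM, 3.62 to 7.21 CPM in WT). *Pdgfrb* (141 CPM, 121 to 226 CPM in WT) and *Cspg4* (103 CPM, 85.6 to 98.3 CPM in WT) were within or near the WT range. The part of mural cells in the level of *Angpt1* was not tested.

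The angiopoietin-like genes were led by *Angptl7* (chr4:147869292-147874569, minus strand), a secreted protein of cornea, sclera and other collagen-rich connective tissue. It had 117434, 71844 and 78471 counts in WT and 125144, 242414 and 76936 counts in *Mkx*-/- libraries. This made up 0.928, 0.609 and 0.554% of all counts in WT and 1.15, 1.92 and 0.695% in *Mkx*-/- libraries, and between 90.4 and 97.3% of the counts of the 8 genes together. Per kilobase of exon it ranked 5th in each WT library and 5th, 4th and 7th in the *Mkx*-/- libraries, among 25016 genes with 1 exon length. *Angptl7* was thus one of the most abundant RNAs of tail tendon in both genotypes.

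The level of *Angptl7* was 9252, 7051 and 6286 CPM in WT and 11463, 17032 and 6099 CPM in *Mkx*-/- libraries. *Mkx*-/- replicate 3 was below every WT library and replicates 1 and 2 were above them, so the groups overlapped. The means were 7530 ± 1540 CPM (SD, n = 3) and 11531 ± 5467 CPM (SD, n = 3). The log2 fold change of 0.61 (95% interval -0.20 to 1.43) did not pass the test (adjusted p = 0.354, edgeR) and was 0.22 without *Mkx*-/- replicate 2. *Angptl7* lies in an intron of *Mtor* on the opposite strand, with 0 shared exonic bases. *Mtor* had 598 to 1004 counts per library, against 71844 or more for *Angptl7*.

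*Angptl2* (chr2:33071589-33103237, plus strand), a secreted protein linked to inflammation and binding integrins, was second per kilobase of exon by its means, although *Angptl4* was above it in WT replicate 1 and *Mkx*-/- replicate 2. Its levels were 345, 571 and 541 CPM in WT and 407, 253 and 435 CPM in *Mkx*-/- libraries, and the groups overlapped. The means were 486 ± 123 CPM (SD, n = 3) and 365 ± 98.1 CPM (SD, n = 3), with a log2 fold change of -0.41 (95% interval -0.99 to 0.17, adjusted p = 0.386, edgeR). It lies within *Ralgps1* on the opposite strand, with 0 shared exonic bases, and *Ralgps1* averaged 7.96 CPM in WT tendons and 6.84 CPM in *Mkx*-/- ones.

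*Angptl1* (chr1:158768693-158791209, plus strand), known as angioarrestin for its action against angiogenesis, had 192, 404 and 511 counts in WT and 1095, 659 and 1421 counts in *Mkx*-/- libraries. Its levels were 15.1, 39.7 and 40.9 CPM against 100, 46.3 and 113 CPM, with every *Mkx*-/- library above every WT library. The means were 31.9 ± 14.5 CPM (SD, n = 3) and 86.4 ± 35.3 CPM (SD, n = 3). Its log2 fold change of 1.44 (95% interval 0.48 to 2.40) was not called (adjusted p = 0.0875, edgeR). It was called upregulated with library size scaling (adjusted p = 0.0262, edgeR) and with a filter of 1 count in any library (adjusted p = 0.00329, edgeR). With any 1 library left out, its adjusted p in edgeR lay between 0.0624 and 0.242. *Ralgps2*, the gene on the opposite strand that encloses *Angptl1* with 0 shared exonic bases, had 3.41 and 3.88 CPM.

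*Angptl4* (chr17:33910695-33918520, minus strand), the inhibitor of lipoprotein lipase that is induced by PPARs, glucocorticoids and hypoxia, varied most among replicates. It had 4258, 993 and 433 counts in WT and 900, 1948 and 395 counts in *Mkx*-/- libraries. Levels were 335, 97.5 and 34.7 CPM in WT and 82.4, 137 and 31.3 CPM in *Mkx*-/- tendons, so the libraries of each genotype were spread over a wide, overlapping range. The means were 156 ± 159 CPM (SD, n = 3) and 83.5 ± 52.8 CPM (SD, n = 3). Its log2 fold change of -0.90 (95% interval -2.65 to 0.85, adjusted p = 0.534, edgeR) turned to 0.34 without WT replicate 1.

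**Figure D4:**
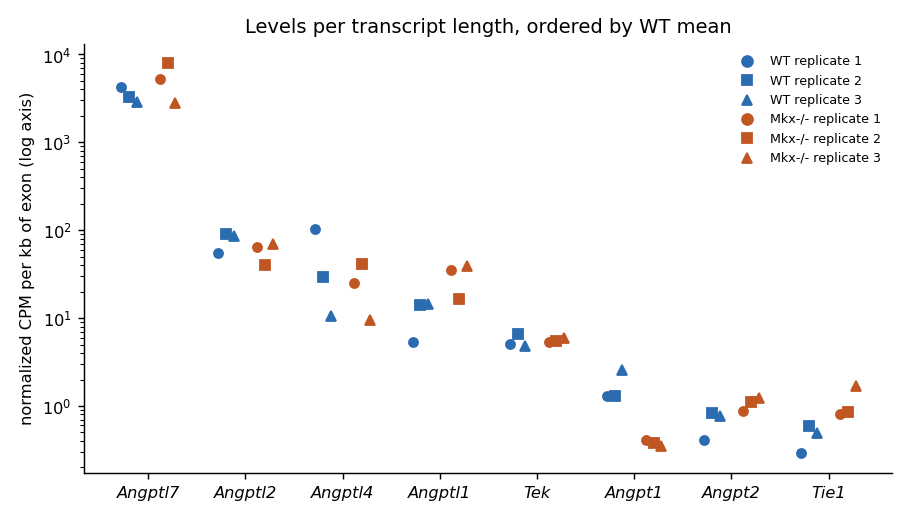
CPM per kilobase of merged exon length (log axis) of the 8 genes in each library, a scale on which genes can be compared with each other. *Angptl7* is near 3491 in WT and 5346 in *Mkx*-/- tendons on average, and *Angpt1* is above *Angpt2* and *Tie1* in WT but below them in *Mkx*-/- tendons.

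On the scale of CPM per kilobase of exon, the mean order in WT was *Angptl7* (3491), *Angptl2* (77.3), *Angptl4* (47.4), *Angptl1* (11.2), *Tek* (5.50), *Angpt1* (1.73), *Angpt2* (0.663) and *Tie1* (0.459). The libraries of *Angptl2* and *Angptl4*, of *Angptl4* and *Angptl1*, of *Angptl1* and *Tek* and of *Angpt2* and *Tie1* overlapped, so these neighbours were not separated. In *Mkx*-/- tendons the order was *Angptl7* (5346), *Angptl2* (58.1), *Angptl1* (30.4), *Angptl4* (25.4), *Tek* (5.57), *Tie1* (1.12), *Angpt2* (1.07) and *Angpt1* (0.381). *Angptl1* with *Angptl4*, *Angptl2* with *Angptl4* and *Tie1* with *Angpt2* overlapped there. *Angpt1* was thus above both *Angpt2* and *Tie1* in every WT library and below both in every *Mkx*-/- library.

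Genes that carry or limit the Tie signal were taken from a list of 21, of which 20 were tested. None was called by edgeR or DESeq2, 4 were higher and 8 lower at an unadjusted p below 0.05, with a median log2 fold change of -0.068. *Svep1*, a matrix protein that binds Tie1, had 145 ± 18.0 CPM (WT) and 256 ± 43.8 CPM (*Mkx*-/-; SD, n = 3), with a log2 fold change of 0.82 (adjusted p = 0.0307, edgeR), which passes the p threshold but is under the fold threshold. *Foxo1*, the transcription factor that Tie2 signalling restrains through Akt, had 114 ± 8.50 and 77.3 ± 7.45 CPM (log2 fold change -0.57, adjusted p = 0.0404, edgeR), likewise under the fold threshold. *Pik3r1*, a regulatory subunit of PI3-kinase, had 160 and 103 CPM (adjusted p = 0.0722, edgeR). *Ptprb*, the phosphatase VE-PTP that dephosphorylates Tie2, had 2.28, 2.55 and 3.52 CPM in WT and 2.66, 3.16 and 11.1 CPM in *Mkx*-/- libraries, and its high value was again in *Mkx*-/- replicate 3.

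Partners of the angiopoietin-like proteins formed a list of 13, with 11 tested. Of these, 1 was upregulated and 0 downregulated, 4 were higher and 1 lower at an unadjusted p below 0.05, with a median log2 fold change of 0.13. *Pcsk5*, a proprotein convertase of the kind that cleaves Angptl proteins, had 31.4, 31.9 and 25.6 CPM in WT and 130, 98.5 and 109 CPM in *Mkx*-/- libraries. It rose by 1.93 on the log2 scale (adjusted p = 0.000878, edgeR, standard error 0.15), and the groups did not overlap. *Pcsk6*, a convertase of the same family, had 189 and 305 CPM (log2 fold change 0.69, adjusted p = 0.0165, edgeR), which is under the fold threshold. *Pirb*, a receptor reported to bind several Angptl proteins, had 10.9 and 7.06 CPM (adjusted p = 0.0803, edgeR). *Lpl*, the lipase that Angptl4 inhibits, had 23.0 ± 3.45 CPM (WT) and 22.0 ± 2.12 CPM (*Mkx*-/-; SD, n = 3).

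**Figure D5:**
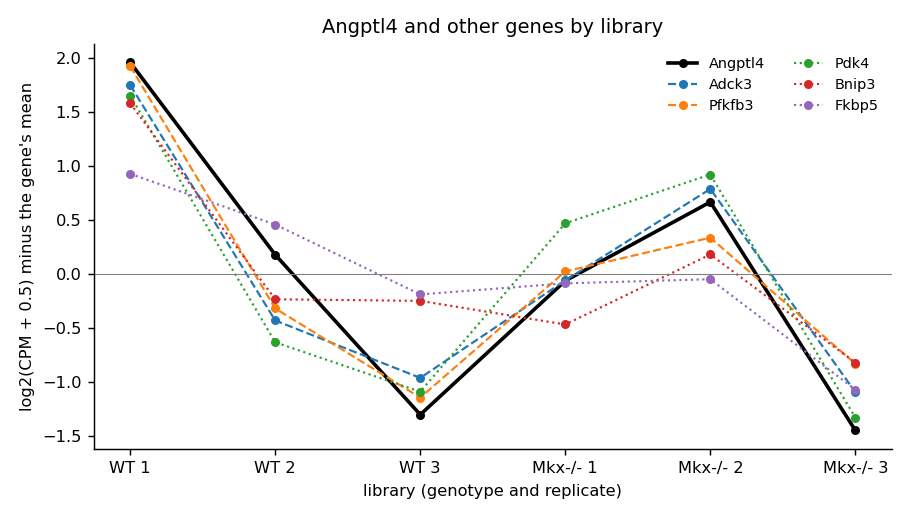
Log2(CPM + 0.5) minus the gene's own mean over the 6 libraries, for *Angptl4*, its 2 nearest profiles (*Adck3* and *Pfkfb3*) and 3 genes chosen after their values were seen (*Pdk4*, *Bnip3* and *Fkbp5*). Lines only join the points of a gene. WT replicate 1 is the highest library for *Angptl4* (335 CPM), and each of the other plotted genes is also highest there.

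Regulators and co-regulated genes of *Angptl4* were described from 4 lists. Of 8 tested upstream regulators, edgeR and DESeq2 called 0, and 1 was lower at an unadjusted p under 0.05, namely *Nr3c1*, the glucocorticoid receptor, with 87.2 CPM in WT tendons and 57.9 CPM in *Mkx*-/- ones (log2 fold change -0.59, adjusted p = 0.0502, edgeR). *Ppard* and *Ppara*, which encode PPAR receptors, had adjusted p-values of 0.286 and 0.712 in edgeR. Of 9 tested PPAR targets, edgeR and DESeq2 called 0 and 1 was higher at an unadjusted p under 0.05, with a median log2 fold change of -0.025. *Ucp3*, a mitochondrial uncoupling protein, and *Acadvl*, an enzyme of fatty acid oxidation, had adjusted p-values of 0.171 and 0.714 in edgeR.

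Of 8 glucocorticoid targets, 2 fell and 0 rose, 3 were lower and 0 higher at an unadjusted p below 0.05, and the median log2 fold change was -0.56. *Ddit4*, an inhibitor of mTORC1, went from 237 to 74.1 CPM (log2 fold change -1.68, adjusted p = 0.0247, edgeR), and *Dusp1*, a phosphatase of MAP kinases, from 211 to 90.6 CPM (-1.22, adjusted p = 0.0248, edgeR). *Fkbp5*, a chaperone of the glucocorticoid receptor, had 231 and 133 CPM (adjusted p = 0.198, edgeR). Of 10 hypoxia targets, edgeR called 0 and DESeq2 called 2 upregulated, 3 were higher and 2 lower at an unadjusted p below 0.05, with a median log2 fold change of -0.38. *Pdk1*, a kinase that restrains pyruvate oxidation, had 43.3 and 24.7 CPM (log2 fold change -0.81, adjusted p = 0.0183, edgeR), under the fold threshold. *Adm*, the vascular peptide adrenomedullin, had 2.51 and 7.77 CPM (adjusted p = 0.0749, edgeR), and *Ndrg1*, a stress-response gene, had 335 and 567 CPM (adjusted p = 0.0755, edgeR).

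The summed glucocorticoid targets were 2496, 1743 and 1396 CPM in WT and 1416, 1543 and 932 CPM in *Mkx*-/- libraries, and the summed PPAR targets were 513, 385 and 305 CPM and 400, 474 and 339 CPM. WT replicate 1, the library with the most *Angptl4*, had the highest sum of both lists, and *Mkx*-/- replicate 3, with the least *Angptl4*, had the lowest sum of glucocorticoid targets. The summed hypoxia targets were 666, 554 and 579 CPM in WT and 583, 841 and 833 CPM in *Mkx*-/- libraries. *Ndrg1* made up much of that sum, with 332, 321 and 351 CPM in WT and 386, 658 and 657 CPM in *Mkx*-/- libraries. The mean log2 level of the same list was 4.48, 4.12 and 4.08 in WT and 4.22, 4.27 and 4.17 in *Mkx*-/- libraries. By the sum, *Mkx*-/- replicate 3 was near the top. By the mean log2 level, WT replicate 1 was highest and *Mkx*-/- replicate 2 next, as for *Angptl4*. The part of these inputs in the spread of *Angptl4* was not tested.

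The genes with the most similar profile over the 6 libraries were sought for the 5 members with a mean of at least 5 CPM (*Tek*, *Angptl1*, *Angptl2*, *Angptl4* and *Angptl7*), among 10294 genes of the same minimum. Likeness was the root mean square difference of log2(CPM + 0.5) after centring each gene. The nearest genes were *Gm10819* (0.030) and *Prkrip1* (0.048) for *Tek*, *Igf2* (0.14) and *Gng4* (0.14) for *Angptl1*, and *Btbd11* (0.073) and *3110040N11Rik* (0.074) for *Angptl2*. *Angptl7* was nearest to *Nog* (0.15), which encodes the BMP antagonist noggin, and to *Slc10a6* (0.20). *Angptl4* was nearest to *Adck3* (0.33) and *Pfkfb3* (0.36), the latter a glycolytic regulator from the list of hypoxia targets. *Gm10819*, annotated as a pseudogene on chromosome 19, also matched *Tek* in counts, at 1.03 to 1.09 times those of *Tek* in each library. The counts of both varied together by less than counting error (chi-square per degree of freedom 0.084), as did those of *Prkrip1* and *Tek* (0.088), each chosen as the closest of the genes compared. Of the 537 words of 25 bases in the annotated exon of *Gm10819*, 0 occurred in *Tek*, introns included, on either strand of mm9, and reads shared through a less exact match were not tested. These differences compare with a spread of each gene around its own mean of 0.14 for *Tek*, 0.95 for *Angptl1*, 0.40 for *Angptl2*, 1.16 for *Angptl4* and 0.53 for *Angptl7*. *Igf2*, a growth factor, had 18.9, 56.0 and 57.2 CPM in WT and 116, 53.8 and 124 CPM in *Mkx*-/- libraries, the same order of libraries as *Angptl1* apart from *Mkx*-/- replicate 2, which fell among the WT libraries. *Nog* had 12.6, 8.15 and 7.05 CPM in WT and 12.3, 22.5 and 8.64 CPM in *Mkx*-/- libraries, with its peak in *Mkx*-/- replicate 2 as for *Angptl7*.

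Among the other genes of the family, *Angptl6* had 6, 4 and 10 counts in WT and 18, 13 and 15 counts in *Mkx*-/- libraries, with a log2 fold change of 1.12 that was not called (adjusted p = 0.166, edgeR). *Angpt4* had 0 to 16 counts and was too low to test, and *Gm6484*, the older symbol of *Angptl8*, had 0 counts in every library.

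Markers of other cell types also differed between the libraries. The 10 skeletal muscle markers summed to 32.1 to 341 CPM in WT and 461 to 2403 CPM in *Mkx*-/- libraries, with 2 upregulated (*Tnnt3* and *Tnni2*) and 10 higher at an unadjusted p under 0.05. The 8 macrophage markers summed to 443 to 486 CPM in WT and 274 to 329 CPM in *Mkx*-/- libraries, with 2 downregulated (*Emr1* and *Mrc1*) and 8 lower at an unadjusted p under 0.05. Of the 5 tested cartilage markers, 2 were upregulated (*Acan* and *Matn3*), and of the 8 tendon markers, 1 was upregulated (*Thbs4*) and 0 downregulated by edgeR, whereas DESeq2 called 1 upregulated and 2 downregulated. At an unadjusted p below 0.05, 2 tendon markers were higher and 2 lower (*Col1a2* and *Scx*, log2 fold changes -1.02 and -1.14), and 5 of 8 were lower in all. The tendon markers summed to 377198 to 520844 CPM in WT and 240950 to 335647 CPM in *Mkx*-/- libraries, without overlap. The collagen genes *Col1a1* and *Col1a2* made up most of each sum, with 130859 and 223607 CPM in WT replicate 1. The mean log2 level of the 8 markers overlapped, at 11.24, 11.83 and 11.88 in WT and 11.84, 11.35 and 11.55 in *Mkx*-/- libraries. The lymphatic markers *Prox1* and *Ccl21a* were at or below 0.183 CPM and *Flt4* at or below 1.03 CPM. *Reln* had 25.6 to 38.3 CPM in WT and 38.8 to 74.7 CPM in *Mkx*-/- libraries, and *Lyve1* 26.7 to 52.5 and 32.9 to 60.9 CPM. Of these 2 tested lymphatic markers, edgeR and DESeq2 called 0, with 1 (*Reln*) higher at an unadjusted p below 0.05. The defining adipocyte markers *Adipoq* and *Plin1* were at or below 0.632 CPM in every library. Of the 2 adipocyte markers with enough counts (*Fabp4* and *Lipe*), edgeR and DESeq2 called 0, with 1 lower at an unadjusted p below 0.05. Of 3 tested epidermal markers edgeR called 0 and DESeq2 1 upregulated, with 2 higher at an unadjusted p below 0.05. The part of these cell types in the values of the 8 genes was not tested.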

How the data were processed

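Total RNA of tail tendon from 3 WT and 3 *Mkx*-/- samples was sequenced on the Ion Proton system (Ion Total RNA-Seq Kit v2). The authors removed adaptor and low-quality reads, aligned the rest to mm9 with MapSplice and deposited raw counts per gene symbol. The counting program, its annotation and its handling of strand and of multi-mapping reads are not given in the sources used here. All 6 columns were matched to samples by title.

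From the deposited counts, TMM-scaled CPM and log2 fold changes (prior count 0.125) came from edgeR 4.0.16 (R 4.3.3) after filterByExpr, with a quasi-likelihood fit on genotype alone and Benjamini-Hochberg adjustment. The standard error is the size of the log2 fold change divided by the root of F, and its interval covers 95%. DESeq2 1.42.0 was an alternative, and the steps were tested on simulated data. Ratios used a pseudocount of 0.5 and an exact permutation test. Exon lengths and coordinates are those of GENCODE vM1 on mm9, and promoters those of RefSeq on GRCm38.p6. No set of replicates was a repeat of 1 library (chi-square per degree of freedom 8.02 to 39.9).

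The 8 genes and the gene lists were chosen with earlier results of these data known. The text names all 8, the genes that enclose them, the called genes of each list or the smallest p-values up to 3, and the 2 most similar profiles. A few results that this rule covers are not reported here. *Ptprb*, *Lpl*, *Pdk4* and the cell type markers given as single values were named after their values were seen. Alternatives were DESeq2, RLE, upper-quartile and library size scaling, a minimum of 1 count in at least 1 library, a minimum of 10 counts in all libraries, a robust fit, a replicate block and the omission of single libraries.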

Additional observations from a re-analysis of the deposited data

How the results depend on the processing

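With 3 libraries per genotype, low counts limit *Angpt1*, *Angpt2* and *Tie1*. The number of the 8 genes upregulated was 0 and became 1 with DESeq2 (*Tie1*, adjusted p = 0.0346), 2 with library size only (*Tie1* and *Angptl1*, adjusted p = 0.0345 and 0.0262 in edgeR) and 2 with the filter of 1 count in any library (adjusted p = 0.0185 and 0.00329 in edgeR). Library size only moved the median log2 fold change of all genes to 0.25. Over all genes, 711 were upregulated with library size only and 541 with the filter of 1 count, which called 322 downregulated. With each library left out in turn, 103 to 321 genes were upregulated and 112 to 248 downregulated, and of the 8 genes 0 were upregulated and 1 downregulated each time.

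*Tek* changed sign without WT replicate 1 (-0.031), WT replicate 3 (-0.084) and *Mkx*-/- replicate 3 (-0.025), and *Angptl4* without WT replicate 1 (0.34). With single libraries left out, *Tek* ranged from -0.084 to 0.15 and *Angptl4* from -1.46 to 0.34. The cause was not tested. With a library left out, the *Angpt1* to *Angpt2* difference ranged from -2.76 to -2.24, *Tek* to *Tie1* from -1.21 to -0.79, and *Tek* and *Tie1* relative to endothelial markers from -0.75 to -0.45 and from 0.27 to 0.56 (exact permutation p = 0.2, the smallest possible).

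The deviations of samples sharing a replicate number had r of -0.0003, -0.24 and 0.31, against -0.40 to 0.44 for the other pairs. A pairing by number was thus not shown, and 3 libraries per group are too few to exclude it. With the replicate block, 0 and 1 of the 8 genes were called up and down, and 195 and 136 of all genes. *Angpt1* had a log2 fold change of -2.12 (adjusted p = 0.0300, edgeR).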
